A study of Saccharomyces cerevisiae with 10 samples.

Results

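The 10 genes of sulfate assimilation and methionine metabolism described here were MET3, MET14, MET16, MET10, MET2, MET17, MET6, SAM1, SAM2 and MUP1. They were chosen by gene name from the 5449 Saccharomyces cerevisiae genes read, and each had 1 probe set of its own. The measurements were mRNA intensities on 10 Affymetrix arrays, 1 for each of 10 cultures of haploid yeast in the Sce3044 background. The 5 genotypes, with 2 biological replicates each, were PMA1e MKT1e, MDS3e MKT1e, MDS3e, MKT1e and Ancestral. The letter e marks an evolved allele of the gene named. All cultures went through the same steps, from overnight growth in rich YPD medium to a defined medium free of amino acids (yeast nitrogen base at 0.67%, with 0.25% dextrose and uracil at 0.02 mg per ml), where they grew for about 17 h to an optical density of about 0.2. PMA1e was read only beside MKT1e, since a PMA1e strain without MKT1e was not analysed here. The sources used here do not give the number of clones behind each genotype, and each value is an average over a culture.

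Yeast takes up sulfate, activates it with ATP, reduces it in steps to sulfide and joins the sulfide to a carbon skeleton made from homoserine. The product, homocysteine, is methylated to methionine, and methionine is activated to S-adenosylmethionine, the methyl donor of the cell. The genes of the pathway are known to be switched on by the activator Met4 with its DNA-binding partners when methionine and cysteine are scarce. A medium without amino acids leaves the cell to make its own methionine from sulfate. Of the 3 genes with evolved alleles, PMA1 encodes the proton pump at the cell surface, MKT1 a regulator that acts after transcription and MDS3 a protein of a signalling pathway for nutrients.

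All 10 members lay above the background limit on their mean level, which was an intensity of 1.73, the 95th percentile of the probe sets for another species. The probe sets of MET3, MET14, MET10, MET17, MET6, SAM1 and SAM2 were among the brightest 10% of all genes, those of MET16 and MET2 just below them, and that of MUP1 was among the dimmer ones. Across genes, which do not count as replicates, the arrays of a genotype reached Pearson's r of 0.996 to 0.998. Their median SD was lowest in PMA1e MKT1e at 0.037 and highest in Ancestral at 0.064 on the log2 scale. For the haploid label, 4 of 4 haploid-specific genes and 5 of 5 MATa-specific genes (mean levels of 8.85 to 10.8, log2) passed the limit. The same was true of 4 of 4 MATalpha-specific genes (4.28 to 6.60), so passing this limit cannot decide the label. Intensities are given as deposited. Differences are in log2 of intensity plus 16, with the standard error (SE), and each adjusted p comes from limma, with Benjamini-Hochberg adjustment over all 5449 genes. The comparisons of each strain with Ancestral share its 2 arrays.

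The member that differed most among the genotypes was MUP1, the high-affinity methionine permease gene. Among the genes of the enzymes the range of genotype means ran from 0.10 in MET2 to 0.42 in MET14, the latter larger than that of 76.8% of all genes. With limma's F-test over the 5 genotypes 6 of the 10 members differed, MUP1, MET16, MET14, MET17, MET6 and SAM2, against 55.0% of all genes. MET3, MET10, MET2 and SAM1 did not pass. The median range between the highest and the lowest genotype mean was 0.32 over the members and 0.27 over all genes. MUP1 had a range of 1.06, larger than that of 98.1% of all genes. Between quantile-normalized arrays 3 members differed, MUP1, MET16 and MET14, against 53.9% of all genes.

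**Figure D1:**
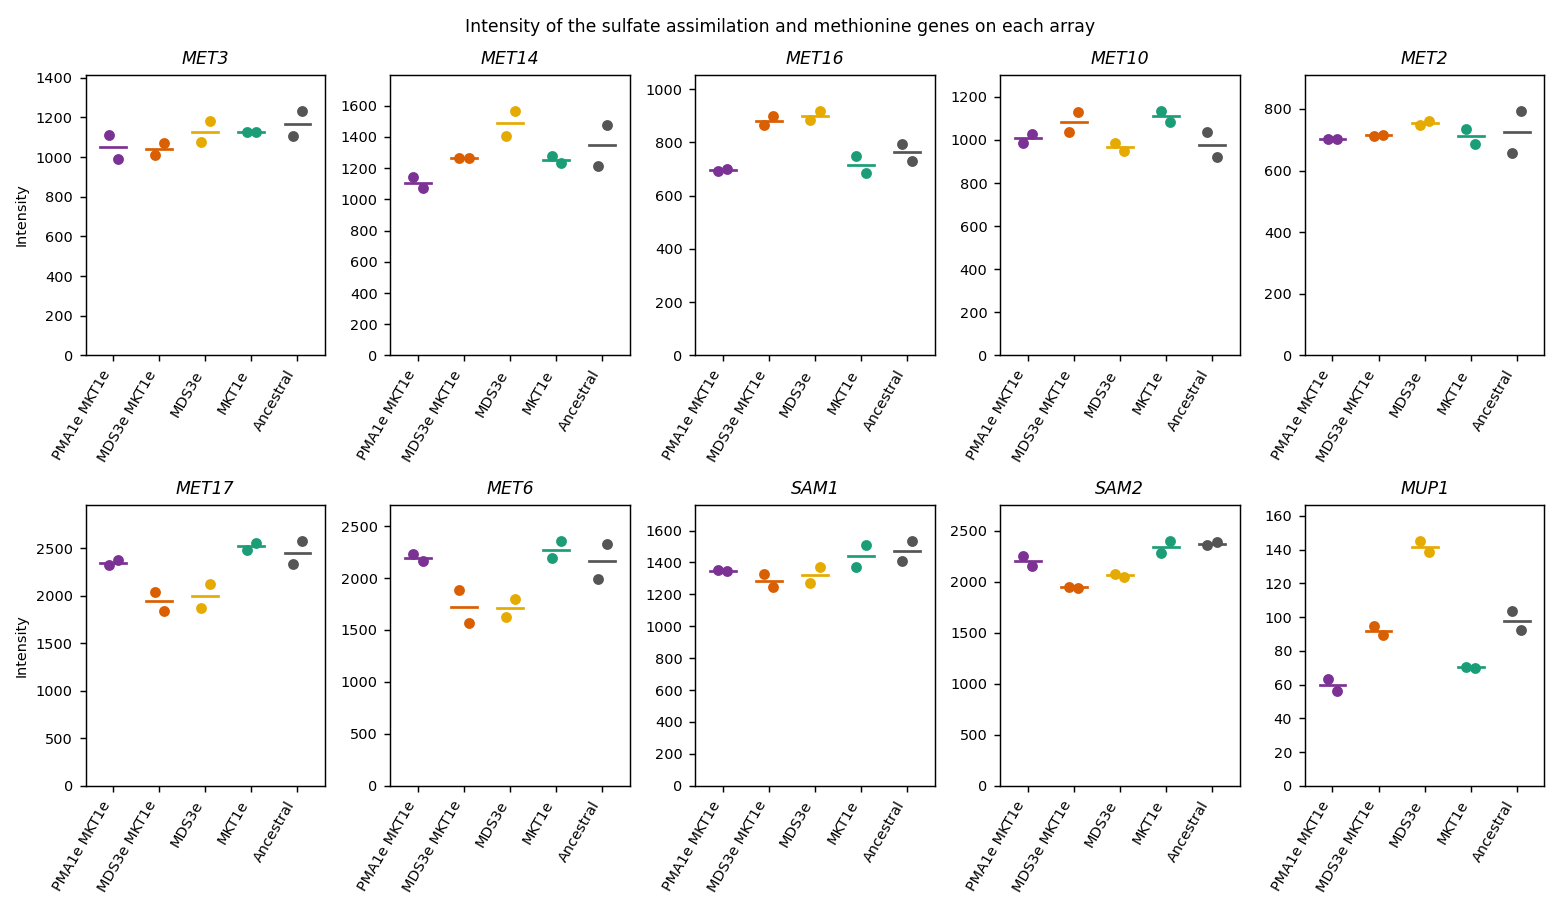
Intensity of each of the 10 members (vertical axis, linear and starting at 0, a scale of its own in each panel) by genotype (horizontal axis). Points are the 2 arrays of a genotype and lines their mean. MUP1 runs from 56.1 to 145, while MET2 runs from 656 to 793, the 2 Ancestral arrays, which span all the others.

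The transport step is read first. MUP1 had intensities of 63.4 and 56.1 in PMA1e MKT1e, 94.7 and 89.3 in MDS3e MKT1e, 145 and 138 in MDS3e, 70.6 and 69.9 in MKT1e, and 104 and 92.2 in Ancestral. Both MDS3e arrays stood above all others, both PMA1e MKT1e arrays below all others, and the MDS3e MKT1e and Ancestral arrays overlapped. Against Ancestral, MUP1 rose by 0.47 ± 0.07 in MDS3e (adjusted p = 0.0015), a fold of 1.39, fell by 0.40 ± 0.07 in MKT1e (adjusted p = 0.0022) and dropped by 0.59 ± 0.07 in PMA1e MKT1e (adjusted p = 0.00015). In MDS3e MKT1e, which carries both alleles, the difference from Ancestral was -0.07 ± 0.07 (adjusted p = 0.42), with a 95% confidence interval from -0.23 to 0.08. These 3 changes held whichever array was left out and under each scaling of the arrays.

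Each allele was also read for MUP1 with the other present. MUP1 was lower in MDS3e MKT1e than in MDS3e, with a difference of -0.55 ± 0.07 (adjusted p = 0.00033). MDS3e MKT1e exceeded MKT1e by 0.32 ± 0.07 (adjusted p = 0.0078), a call that was lost without MDS3e MKT1e replicate 1 (0.29, adjusted p = 0.051) or without MKT1e replicate 2 (0.32, adjusted p = 0.053). The interaction of MDS3e and MKT1e on MUP1 was -0.15 ± 0.10 (adjusted p = 0.86), with a 95% confidence interval from -0.36 to 0.07. The contrast with the largest size was PMA1e MKT1e against MDS3e, at -1.06 ± 0.07 (adjusted p = 1.7e-06), a fold of 0.48. PMA1e MKT1e also lay below MDS3e MKT1e, by -0.51 ± 0.07 (adjusted p = 0.0005), and MDS3e above MKT1e, by 0.87 ± 0.07 (adjusted p = 7.2e-06). PMA1e MKT1e and MKT1e, whose arrays did not overlap, differed by -0.19 ± 0.07 without passing the test (adjusted p = 0.38).

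The order of MUP1 levels was therefore MDS3e, then Ancestral and MDS3e MKT1e, which did not differ beyond their spread, then MKT1e and PMA1e MKT1e, which did not pass the test against each other.

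The early steps of sulfate assimilation are carried out by the products of MET3, MET14, MET16 and MET10. MET3 encodes ATP sulfurylase, which activates sulfate, and MET14 the kinase that phosphorylates the activated sulfate. MET16 encodes the reductase that turns this compound into sulfite, and MET10 a subunit of sulfite reductase, which makes sulfide.

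MET16 had intensities of 693 and 699 in PMA1e MKT1e, 864 and 900 in MDS3e MKT1e, 883 and 917 in MDS3e, 748 and 686 in MKT1e, and 796 and 730 in Ancestral. All 4 arrays with the evolved MDS3 allele lay above the 6 without it. Against MKT1e, MET16 was higher by 0.32 ± 0.06 in MDS3e (adjusted p = 0.0024), and PMA1e MKT1e was lower than MDS3e MKT1e by -0.33 ± 0.06 (adjusted p = 0.0037), as well as lower than MDS3e by -0.36 ± 0.06 (adjusted p = 0.0011). These 3 differences passed the test whichever array was left out and under each scaling.

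The contrasts of MET16 with Ancestral were smaller and less steady. MET16 rose by 0.24 ± 0.06 in MDS3e (adjusted p = 0.024), and in MDS3e MKT1e it rose by 0.21 ± 0.06 (adjusted p = 0.026). The call in MDS3e did not pass without MDS3e replicate 1 (0.26, adjusted p = 0.072), MDS3e replicate 2 (0.21, adjusted p = 0.13) or Ancestral replicate 2 (0.17, adjusted p = 0.13). That in MDS3e MKT1e did not pass without MDS3e MKT1e replicate 1 (0.24, adjusted p = 0.057), MDS3e MKT1e replicate 2 (0.18, adjusted p = 0.13) or Ancestral replicate 2 (0.15, adjusted p = 0.15), and after median centring of each array it was 0.12 (adjusted p = 0.12). MDS3e MKT1e exceeded MKT1e by 0.29 ± 0.06 (adjusted p = 0.0087), which did not pass without MDS3e MKT1e replicate 2 (0.26, adjusted p = 0.061) or MKT1e replicate 2 (0.23, adjusted p = 0.076).

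MET14 had intensities of 1141 and 1073 in PMA1e MKT1e, 1263 and 1265 in MDS3e MKT1e, 1407 and 1565 in MDS3e, 1276 and 1234 in MKT1e, and 1217 and 1476 in Ancestral. The 2 Ancestral arrays were far apart and spanned those of MDS3e MKT1e and MKT1e. PMA1e MKT1e was lower than MDS3e by -0.42 ± 0.09 (adjusted p = 0.003), under every array left out and every scaling. The F-test of MET14 (adjusted p = 0.02) was lost without PMA1e MKT1e replicate 2 or without MDS3e replicate 2, with a highest adjusted p of 0.091.

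MET14 in PMA1e MKT1e was also lower than in Ancestral, by -0.27 ± 0.09 (adjusted p = 0.049), a call lost without any 1 of the arrays other than Ancestral replicate 1. That value ran from -0.41 to -0.14 over the arrays left out, with -0.14 without Ancestral replicate 2. In MDS3e the difference of MET14 from Ancestral was 0.15 ± 0.09 (adjusted p = 0.25), and it passed at 0.29 (adjusted p = 0.019) with quantile normalization, or 0.27 (adjusted p = 0.026) with cyclic loess. MET14 in MDS3e exceeded MKT1e by 0.24 ± 0.09 (adjusted p = 0.046), which was lost in 7 of the 10 runs without 1 array, and the value was 0.16 without MDS3e replicate 2.

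MET3 had intensities of 1111 and 990 in PMA1e MKT1e, 1012 and 1073 in MDS3e MKT1e, 1075 and 1182 in MDS3e, 1126 and 1127 in MKT1e, and 1107 and 1231 in Ancestral. No genotype stood apart, and in the 10 contrasts of 2 genotypes MET3 passed none. The 95% confidence interval of its difference from Ancestral was -0.33 to 0.01 in MDS3e MKT1e and -0.22 to 0.12 in MKT1e. After median centring of each array the MDS3e MKT1e difference passed at -0.245 (adjusted p = 0.033), against -0.16 ± 0.08 (adjusted p = 0.13) as deposited.

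MET10 had intensities of 987 and 1026 in PMA1e MKT1e, 1036 and 1128 in MDS3e MKT1e, 984 and 948 in MDS3e, 1134 and 1085 in MKT1e, and 1035 and 922 in Ancestral. The MKT1e arrays lay above the MDS3e and Ancestral arrays. MET10 differed from Ancestral by 0.18 ± 0.07 in MKT1e (adjusted p = 0.092), while the MDS3e MKT1e difference was 0.14 ± 0.07 (adjusted p = 0.13), neither past the test as deposited, and the second was 0.25 (adjusted p = 0.031) after cyclic loess. MET10 in MDS3e was lower than in MKT1e by -0.20 ± 0.07 (adjusted p = 0.04), a call lost in 6 of the 10 runs without 1 array and after either quantile normalization (-0.18, adjusted p = 0.1) or cyclic loess (-0.12, adjusted p = 0.24).

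The next genes act where sulfur meets carbon. MET2 encodes the enzyme that acetylates homoserine, MET17 the sulfhydrylase that joins sulfide to acetylhomoserine to give homocysteine, and MET6 the methionine synthase. MET2 had intensities of 704 and 703 in PMA1e MKT1e, 712 and 716 in MDS3e MKT1e, 747 and 761 in MDS3e, 737 and 688 in MKT1e, and 656 and 793 in Ancestral. The Ancestral arrays spanned all the others, and MET2 had a range of genotype means of 0.10, larger than that of only 6.28% of genes.

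MET17 had intensities of 2326 and 2372 in PMA1e MKT1e, 2041 and 1841 in MDS3e MKT1e, 1874 and 2124 in MDS3e, 2486 and 2557 in MKT1e, and 2332 and 2571 in Ancestral. All 4 arrays with the evolved MDS3 allele lay below the 6 without it. In MDS3e MKT1e the level of MET17 fell by 0.33 ± 0.08 against Ancestral (adjusted p = 0.007), and in MDS3e it fell by 0.29 ± 0.08 (adjusted p = 0.022). The call in MDS3e MKT1e was lost without MDS3e MKT1e replicate 2 (-0.26, adjusted p = 0.061), and that in MDS3e without MDS3e replicate 1 (-0.20, adjusted p = 0.16) or Ancestral replicate 2 (-0.22, adjusted p = 0.12). After quantile normalization the values were -0.04 (adjusted p = 0.64) and -0.03 (adjusted p = 0.82).

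MET6 had intensities of 2233 and 2160 in PMA1e MKT1e, 1881 and 1563 in MDS3e MKT1e, 1621 and 1794 in MDS3e, 2193 and 2352 in MKT1e, and 1992 and 2331 in Ancestral. Again the 4 arrays with the evolved MDS3 allele were the lowest. In MDS3e MKT1e the level of MET6 fell by 0.33 ± 0.10 (adjusted p = 0.025), and in MDS3e it fell by 0.33 ± 0.10 (adjusted p = 0.034). The call in MDS3e MKT1e was lost without MDS3e MKT1e replicate 2 (-0.19, adjusted p = 0.19) or Ancestral replicate 2 (-0.21, adjusted p = 0.16). The second was lost without MDS3e replicate 1 (-0.26, adjusted p = 0.19), MDS3e replicate 2 (-0.41, adjusted p = 0.062) or Ancestral replicate 2 (-0.22, adjusted p = 0.19). After quantile normalization the values were -0.06 (adjusted p = 0.66) and -0.13 (adjusted p = 0.32).

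SAM1 and SAM2 encode the 2 S-adenosylmethionine synthetases, close copies of each other, and reading of one by the other's probe set was not tested. SAM2 had intensities of 2250 and 2153 in PMA1e MKT1e, 1951 and 1934 in MDS3e MKT1e, 2077 and 2048 in MDS3e, 2277 and 2393 in MKT1e, and 2355 and 2385 in Ancestral. SAM2 fell by 0.28 ± 0.05 in MDS3e MKT1e (adjusted p = 0.0021), whichever array was left out, and in MDS3e it fell by 0.20 ± 0.05 (adjusted p = 0.022). The second call was lost without MDS3e replicate 1 (-0.21, adjusted p = 0.086), MDS3e replicate 2 (-0.19, adjusted p = 0.11) or Ancestral replicate 2 (-0.19, adjusted p = 0.079). After quantile normalization both signs turned, to 0.01 (adjusted p = 0.9) and 0.06 (adjusted p = 0.47).

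SAM1 had intensities of 1350 and 1347 in PMA1e MKT1e, 1330 and 1244 in MDS3e MKT1e, 1271 and 1370 in MDS3e, 1374 and 1508 in MKT1e, and 1407 and 1532 in Ancestral. It differed from Ancestral by -0.19 ± 0.07 in MDS3e MKT1e (adjusted p = 0.054) and by -0.15 ± 0.07 in MDS3e (adjusted p = 0.14), and passed no contrast of 2 genotypes. The 95% confidence interval in MDS3e MKT1e was -0.34 to -0.03. Whether SAM1 and SAM2 differed in their response was not tested.

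**Figure D2:**
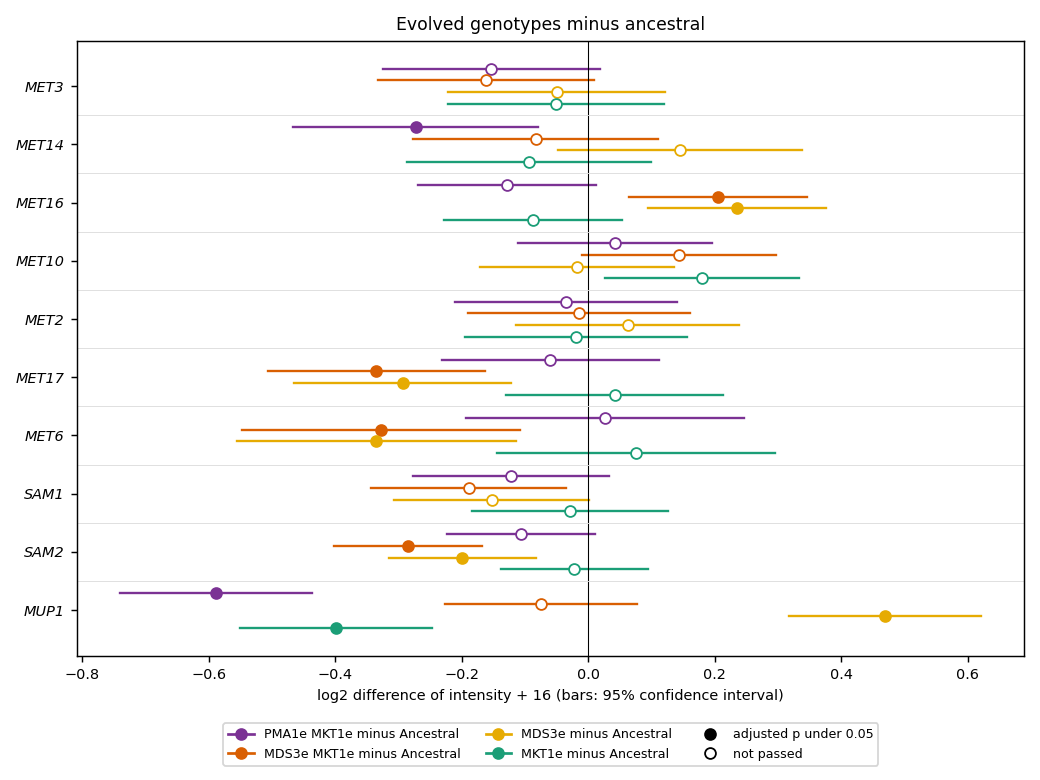
Difference of each evolved genotype from Ancestral in log2 of intensity plus 16 (horizontal axis) for each member (vertical axis), with 95% confidence intervals. Filled points passed the test and open points did not. MUP1 stands at 0.47 in MDS3e, at -0.40 in MKT1e and at -0.59 in PMA1e MKT1e, and MET17, MET6 and SAM2 pass below 0 in both strains with MDS3e.

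The arrays with and without MDS3e, which differed in MET17, MET6 and SAM2 (lower) and in MET16 (higher), also differed in 2 other measurements. Over the brightest 10% of genes the median difference from Ancestral was -0.20 in MDS3e MKT1e and -0.15 in MDS3e, while it was -0.06 in PMA1e MKT1e and -0.01 in MKT1e. The difference between 3' and 5' probe sets of the ACT1 control ran from 0.20 to 0.33 (log2) on the 4 arrays with MDS3e and from 0.37 to 0.51 on the 6 without it. That of the SPT15 control ran from 0.84 to 0.93 and from 0.98 to 1.21 in the same order, while that of the TDH1 control was the higher with MDS3e, at 0.46 to 0.58 against 0.26 to 0.44. Those of the WBP1, RIP1 and SRB4 controls overlapped. The part of these measurements in the levels of the 4 genes was not tested. After quantile normalization MUP1 differed from Ancestral by 0.39 (adjusted p = 0.0023) in MDS3e and by -0.43 (adjusted p = 0.00077) in MKT1e.

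**Figure D3:**
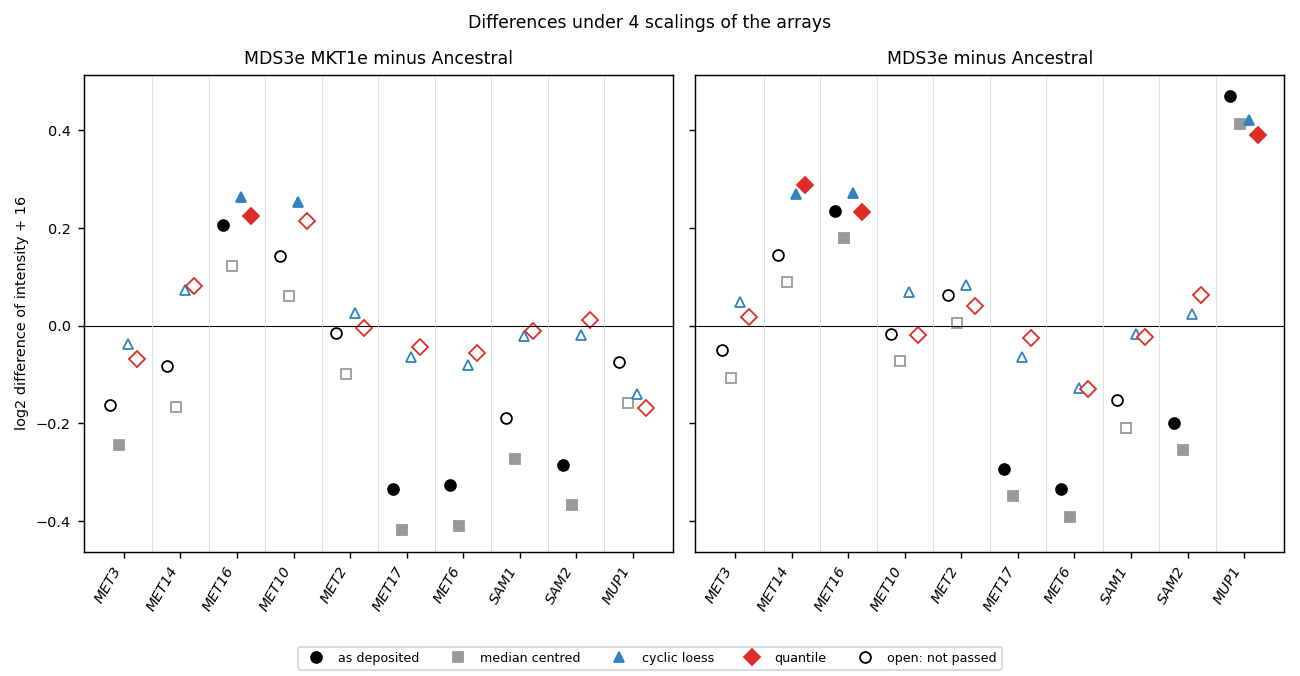
Difference from Ancestral in log2 of intensity plus 16 (vertical axis) of each member (horizontal axis) in MDS3e MKT1e and in MDS3e, under 4 scalings of the arrays, with open symbols where the test was not passed. MET17, MET6 and SAM2 lie between -0.33 and -0.20 as deposited and between -0.13 and 0.06 after cyclic loess or quantile normalization, while MUP1 in MDS3e stays between 0.39 and 0.47.

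Counted by comparison, 0 members rose and 1 fell in MKT1e against Ancestral, where 20.3% of all genes changed (11.8% higher, 8.48% lower). That count was 2 without Ancestral replicate 1. In MDS3e 2 rose and 3 fell (25.2% of all genes, 14.5% higher, 10.7% lower), and after quantile normalization 3 rose and 0 fell. The count of 5 in MDS3e was 1 without MDS3e replicate 1, and 2 without MDS3e replicate 2 or without Ancestral replicate 2. In MDS3e MKT1e 1 rose and 3 fell (38.7% of all genes, 21.9% higher, 16.7% lower), with 1 and 0 after quantile normalization and 0 and 5 after median centring (40.5% of all genes). That count of 4 was 1 without MDS3e MKT1e replicate 2, 2 without Ancestral replicate 2 and 7 without Ancestral replicate 1. In PMA1e MKT1e 0 rose and 2 fell (21.6% of all genes, 14.3% higher, 7.32% lower), with 0 and 1 after quantile normalization. It was 1 without any of the arrays other than Ancestral replicate 1. Over all genes, quantile normalization gave 22.4% changed in PMA1e MKT1e, 34.0% in MDS3e MKT1e, 20.3% in MDS3e and 22.9% in MKT1e against Ancestral. Leaving out 1 array also moved the counts over all genes. The shares above are therefore no measure for the member counts of those runs. The median difference of the members was -0.12 in MDS3e MKT1e, -0.03 in MDS3e, -0.11 in PMA1e MKT1e and -0.02 in MKT1e. Medians of all genes ran from -0.01 to 0.03. Over the brightest 10% of genes, where most members lie, the medians were -0.20, -0.15, -0.06 and -0.01 in the same order.

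Among the evolved strains, MDS3e MKT1e against MDS3e changed 1 member, MUP1, downward (17.2% of all genes, 11.0% higher, 6.24% lower), and 2 without either of the Ancestral arrays. In MDS3e MKT1e against MKT1e 2 were higher and 3 lower (26.4% of all genes, 15.0% higher, 11.5% lower), with 2 and 0 after quantile normalization. That count was 2 without MDS3e MKT1e replicate 2 and 0 without MKT1e replicate 2. In PMA1e MKT1e against MDS3e MKT1e 3 were higher and 2 lower (31.4% of all genes, 15.3% higher, 16.1% lower), with 0 and 3 after quantile normalization, and the count was 2 without MDS3e MKT1e replicate 2 or without either of the PMA1e MKT1e arrays. In MDS3e against MKT1e 3 were higher and 4 lower (45.0% of all genes, 24.5% higher, 20.6% lower), with 3 and 0 after quantile normalization, and the count was 3 without MDS3e replicate 1 or MKT1e replicate 2 and 4 without MDS3e replicate 2. In PMA1e MKT1e against MDS3e 2 were higher and 3 lower (46.0% of all genes, 23.1% higher, 23.0% lower), with 0 and 3 after quantile normalization, and the count was 3 without MDS3e replicate 1 or PMA1e MKT1e replicate 1. For these contrasts quantile normalization left 19.9% of all genes changed in MDS3e MKT1e against MKT1e, 29.7% in PMA1e MKT1e against MDS3e MKT1e, 42.6% in MDS3e against MKT1e and 46.3% in PMA1e MKT1e against MDS3e. In the runs without 1 array the counts over all genes moved as well as those of the members.

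PMA1e MKT1e against MKT1e, the contrast that reads PMA1e, changed 0 members by limma's adjusted p, where 0.0184% of all genes (1 gene) changed. At an unadjusted p under 0.05 it changed 1 of the 10 members, MUP1, and 537 of all 5449 genes. The 95% confidence interval of that contrast was -0.34 to -0.04 for MUP1 and -0.37 to 0.01 for MET14. The interaction of MDS3e and MKT1e changed 0 members by limma's adjusted p, where 0.385% of all genes changed (0.0734% higher, 0.312% lower). It changed 0 members at an unadjusted p under 0.05, where 387 of all 5449 genes changed.

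Over the 10 arrays as deposited, MET17, MET6, SAM1 and SAM2 correlated with each other at Pearson's r from 0.82 to 0.97, and MUP1 with MET16 at 0.82 and with MET14 at 0.80. MET10 correlated negatively with each of the other members, from -0.51 with MET2 to -0.05 with MET16. MET3 correlated with MET14 at 0.68 and with SAM1 at 0.61, and MET2 with MET14 at 0.75 and with MUP1 at 0.36. MET16 and MET6 ran opposite to each other at -0.92. The points share their arrays and the scaling of each array, and this is a description over 10 arrays of 5 genotypes. After quantile normalization, which was chosen for these correlations after seeing the data, MUP1 and MET14 correlated at 0.88, MUP1 and MET16 at 0.71 and MET16 and MET6 at -0.79. MET17 and SAM1 correlated at 0.71, MET17 and MET6 at 0.64 and MET6 and SAM1 at 0.48 on that scale. The correlation of SAM2 with MET6 turned from 0.82 as deposited to -0.77, that of SAM2 with MET17 from 0.88 as deposited to -0.49 and that of SAM1 with SAM2 from 0.83 as deposited to -0.17. MET10 turned positive there with MET16 (0.20) and SAM2 (0.03). After median centring MET10 was positive with MET17 (0.19), SAM2 (0.17), MET6 (0.15) and SAM1 (0.05). Its other pairs stayed negative under each of these scalings.

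**Figure D4:**
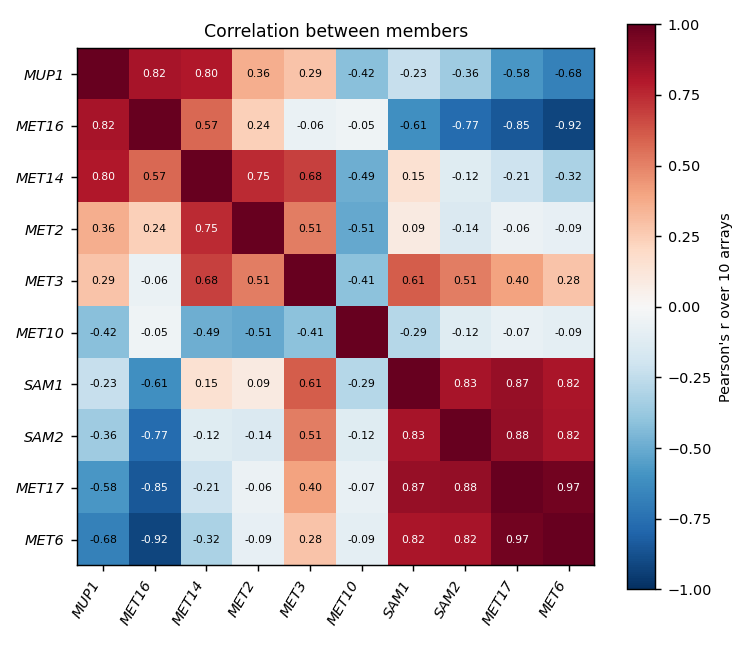
Pearson's r between members over the 10 arrays in log2 of intensity plus 16, as deposited. Both axes list the 10 members, and red stands for positive and blue for negative values. The block of SAM1, SAM2, MET17 and MET6 runs from 0.82 to 0.97, and MET16 against MET6 is at -0.92.

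The genes most like each member were sought among 2314 other genes above background whose genotype means ranged over at least 0.3. For MUP1 they were IME1, HRI1 and DBP5 (r of 0.98, 0.98 and 0.97 over 10 arrays). For MET16 they were DAD2, NAN1 and YLR363W-A (0.99, 0.98 and 0.98). For MET6 they were HOR7, NCE102 and RPL5 (0.99, 0.99 and 0.99). For MET17 they were RPL21B, RPS6B and FBA1 (0.99, 0.99 and 0.98), and for SAM2 RPS25B, RPL17A and RPL11A (0.98, 0.98 and 0.97), where a ribosomal protein probe set may also read a close copy. For MET14 YKT6 came first (0.96), for SAM1 VMA2 (0.91), for MET10 AGA2 (0.90), for MET3 YOR072W-B (0.80) and for MET2 APL5 (0.73). All of these r are on the values as deposited, and other scalings were not read for them. Among members, r of SAM2 with MET6 and with MET17 turned sign after quantile normalization.

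The other genes of the sulfur pathways, a list of 33, were read for comparison, and 21 of them passed the F-test against 55.0% of all genes. Of those 21, 13 passed under each scaling, and some of the 21 were lost without at least 1 array. How many of all genes kept their F-test in this way is not given here. Against Ancestral 2 of the 33 rose and 4 fell in PMA1e MKT1e (21.6% of all genes changed), 7 rose and 7 fell in MDS3e MKT1e (38.7%), 7 rose and 6 fell in MDS3e (25.2%), and 2 rose and 4 fell in MKT1e (20.3%). Their median differences ran from -0.005 to 0.05.

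Among the transporters, SUL1, a high-affinity sulfate permease gene, had intensities of 630 and 593 in PMA1e MKT1e, 967 and 1014 in MDS3e MKT1e, 1064 and 1087 in MDS3e, 596 and 586 in MKT1e, and 973 and 856 in Ancestral. The strains with MKT1e and without MDS3e stood apart below the rest. Against Ancestral, SUL1 fell by 0.57 ± 0.07 in PMA1e MKT1e (adjusted p = 0.000185), and in MKT1e it fell by 0.61 ± 0.07 (adjusted p = 0.00012). MDS3e MKT1e exceeded MKT1e by 0.73 ± 0.07 (adjusted p = 4.6e-05). Its interaction of MDS3e and MKT1e was 0.50 ± 0.10 and did not pass the test (adjusted p = 0.072). The other sulfate permease gene, SUL2, moved little and the other way, with a lower level in MDS3e than in MKT1e by -0.24 ± 0.05.

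MMP1, the S-methylmethionine permease gene, had intensities of 189 and 171 in PMA1e MKT1e, 263 and 304 in MDS3e MKT1e, 419 and 386 in MDS3e, 200 and 181 in MKT1e, and 298 and 216 in Ancestral. MMP1 in MDS3e exceeded MKT1e by 1.02 ± 0.13 (adjusted p = 0.00015), and PMA1e MKT1e lay below MDS3e by -1.09 ± 0.13 (adjusted p = 8.3e-05). Both differences passed with each array left out and each scaling. MHT1, the methyltransferase gene that uses S-methylmethionine to make methionine, was also higher in MDS3e than in MKT1e, by 0.51 ± 0.08 (adjusted p = 0.0006).

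The low-affinity methionine permease gene MUP3 fell by 0.35 ± 0.06 in MDS3e MKT1e against Ancestral (adjusted p = 0.0016). In MDS3e the MUP3 difference from Ancestral was -0.20 ± 0.06 (adjusted p = 0.041). SAM3, the S-adenosylmethionine permease gene, fell by 0.33 ± 0.07 in PMA1e MKT1e (adjusted p = 0.0099), by 0.38 ± 0.07 in MDS3e MKT1e (adjusted p = 0.003) and by 0.31 ± 0.07 in MKT1e (adjusted p = 0.014), and in MDS3e its difference from Ancestral was -0.22 ± 0.07 (adjusted p = 0.057). The SAM3 call in PMA1e MKT1e did not pass without PMA1e MKT1e replicate 2 (-0.32, adjusted p = 0.066) or Ancestral replicate 1 (-0.23, adjusted p = 0.063), and that in MKT1e without MKT1e replicate 1 (-0.28, adjusted p = 0.083) or Ancestral replicate 1 (-0.22, adjusted p = 0.087). YCT1, a cysteine transporter gene, was higher in PMA1e MKT1e than in MDS3e by 0.43 ± 0.09.

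**Figure D5:**
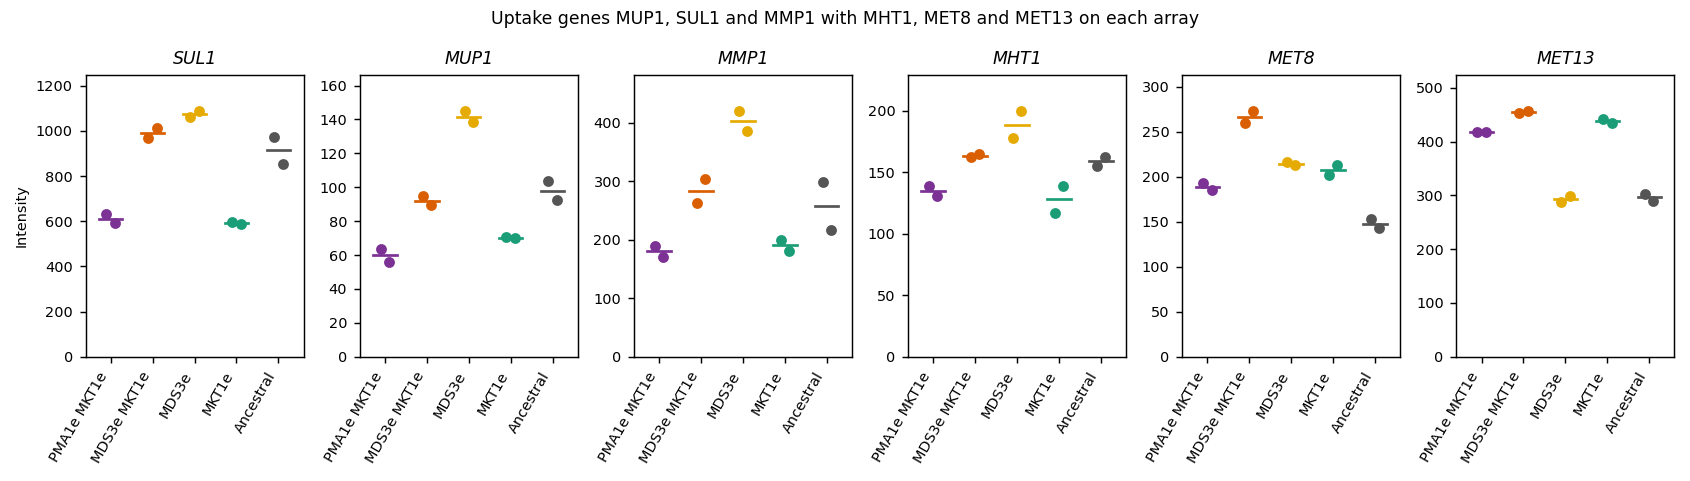
Intensity (vertical axis, linear and starting at 0) by genotype (horizontal axis) of the permease genes SUL1, MUP1 and MMP1 and of MHT1, MET8 and MET13, with the 2 arrays of a genotype as points and their mean as a line. SUL1 lies between 586 and 630 in PMA1e MKT1e and MKT1e and at 856 or above in the other genotypes.

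Among the enzymes, MET8 makes the sirohaem cofactor of sulfite reductase, and its gene had intensities of 193 and 185 in PMA1e MKT1e, 260 and 273 in MDS3e MKT1e, 216 and 213 in MDS3e, 202 and 213 in MKT1e, and 153 and 143 in Ancestral. Both Ancestral arrays were the lowest. MET8 rose by 0.32 ± 0.06 in PMA1e MKT1e, by 0.78 ± 0.06 in MDS3e MKT1e, by 0.49 ± 0.06 in MDS3e and by 0.45 ± 0.06 in MKT1e, with a highest adjusted p of 0.0027 among these. MET13, a methylenetetrahydrofolate reductase gene that supplies the methyl group for methionine, had intensities of 419 and 418 in PMA1e MKT1e, 453 and 456 in MDS3e MKT1e, 289 and 300 in MDS3e, 442 and 436 in MKT1e, and 303 and 291 in Ancestral. The 6 arrays with MKT1e lay above the 4 without it. Against Ancestral, MET13 rose by 0.47 ± 0.05 in PMA1e MKT1e (adjusted p = 0.0001), and in MKT1e it rose by 0.54 ± 0.05 (adjusted p = 4.4e-05). It was higher by 0.60 ± 0.05 in MDS3e MKT1e than in MDS3e (adjusted p = 2.3e-05).

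Against Ancestral, SAM4, which recycles S-adenosylmethionine, rose by 0.33 ± 0.06 in MDS3e MKT1e (adjusted p = 0.0016) and by 0.26 ± 0.06 in MDS3e (adjusted p = 0.011). CBF1, a DNA-binding partner of Met4, rose by 0.43 ± 0.09 in MDS3e MKT1e (adjusted p = 0.0038), where its arrays stood apart at 134 and 169. In MDS3e CBF1 rose by 0.37 ± 0.09 (adjusted p = 0.015). Its F-test did not pass after quantile normalization (adjusted p = 0.055). The activator gene MET4 was higher in MDS3e than in MKT1e by 0.31 ± 0.07. SAH1, the S-adenosylhomocysteine hydrolase gene, was lower in MDS3e than in MKT1e by -0.40 ± 0.07. HOM2 and HOM6, of homoserine synthesis, lost their F-test after quantile normalization (adjusted p = 0.122 and 0.415). CYS4, of cysteine synthesis from homocysteine, lost it there too (adjusted p = 0.11), and also without Ancestral replicate 2 (adjusted p = 0.053). MET5, the other subunit of sulfite reductase, MET22, STR2, GSH2 and the sulfatase gene BDS1 passed the F-test as deposited with ranges of genotype means from 0.21 to 0.32, and each lost it without at least 1 array.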

How the data were processed

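Per the submitters' processing notes, the authors used Affymetrix Expression Console to make the normalized intensity values. For its version, algorithm and scaling the sources used here give nothing. The deposited table held 1 value per probe set and array, from 0.00517 to 3479, a linear scale. Probe sets were named through GEO's platform annotation and R64 gene IDs. Of 10928 probe sets, 5498 named 1 S. cerevisiae gene, and the brightest was kept for 47 genes with several, which left 5449 genes. Values were used as log2 of intensity plus 16. A mean for each genotype was fitted over the 10 arrays together with limma 3.58.1 (R 4.3.3), and each contrast shares the pooled spread. A call is a two-sided Benjamini-Hochberg adjusted p under 0.05. On simulated data for 5449 genes with 200 set to change, the MKT1e contrast with Ancestral recovered 66.4% of 1.25-fold, 92.6% of 1.5-fold and 99.4% of 2-fold changes. False calls were 4.81% of the calls. In the deposited data that contrast called 1104 genes, so the percentages hold for the simulated setting only. The named genes are the members, the listed pathway genes that passed the F-test, and those most correlated. Members and lists were chosen with earlier results of these data known. The number of arrays limits the precision. Labels call the replicates biological.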

Additional observations from a re-analysis of the deposited data

How the results depend on the processing

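Counts of members changed are given here with 10 members tested. With quantile normalization the counts were 1 for MDS3e MKT1e against Ancestral (4 as deposited), 3 for MDS3e (5) and 1 for PMA1e MKT1e (2) against Ancestral, 2 for MDS3e MKT1e against MKT1e (5), 3 for PMA1e MKT1e against MDS3e MKT1e (5), 3 for MDS3e against MKT1e (7), 3 for PMA1e MKT1e against MDS3e (5), and 3 for the F-test (6). Cyclic loess gave 2, 3, 1, 2, 3 and 3 for the first 6 of these contrasts and 3 for the F-test. Of all genes it called 34.0%, 20.9%, 20.7%, 20.0%, 29.6% and 42.8% in the same order, and 53.1% by the F-test. With only the compared genotypes in the fit, MDS3e MKT1e, MDS3e and PMA1e MKT1e against Ancestral gave 2, 1 and 1, and a pseudocount of 1 gave 1 for the last. At an adjusted p under 0.01 the counts were 2, 1 and 1 for the same 3 contrasts, 2 for PMA1e MKT1e against MDS3e MKT1e, 4 for MDS3e against MKT1e and 3 for PMA1e MKT1e against MDS3e. For fits with only the compared genotypes, the pseudocount of 1 and the limit of 0.01, shares of all genes are not given separately. Those counts do not set the members apart from other genes. Leaving out 1 array gave 1 to 7 for MDS3e MKT1e, 1 to 5 for MDS3e, 1 to 2 for MKT1e and 1 to 2 for PMA1e MKT1e against Ancestral. It gave 1 to 2 for MDS3e MKT1e against MDS3e, 0 to 5 against MKT1e, 2 to 6 for PMA1e MKT1e against MDS3e MKT1e, 3 to 7 for MDS3e against MKT1e, 3 to 5 for PMA1e MKT1e against MDS3e and 5 to 7 for the F-test. The array left alone in a genotype took the spread of the others. Counts over all genes moved in these runs too, so the ranges are not a trait of the members alone. The 35 calls of members in the contrasts come from 10 genes on shared arrays and do not count as separate findings. Most of them were lost without at least 1 array or under another alternative. How often calls over all genes were lost is not given here.

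Signs that turned were those of bright genes. With quantile normalization SAM2 stood at 0.064 in MDS3e and 0.012 in MDS3e MKT1e against Ancestral, at 0.052 in MDS3e MKT1e and 0.10 in MDS3e against MKT1e, and at -0.080 in PMA1e MKT1e against MDS3e MKT1e. With cyclic loess SAM2 stood at 0.025 in MDS3e against Ancestral, 0.0016 in MDS3e MKT1e and 0.046 in MDS3e against MKT1e, and -0.023 in PMA1e MKT1e against MDS3e MKT1e. MET17 in PMA1e MKT1e against MDS3e was -0.0037 with quantile normalization. SAH1 in MDS3e MKT1e against Ancestral was 0.0051 with quantile normalization and 0.0035 with cyclic loess. The cause was not tested. Genes changed over all 5449 ran, over the alternatives other than arrays left out, from 578 to 1248 in MKT1e, 549 to 1430 in MDS3e, 1255 to 2208 in MDS3e MKT1e and 656 to 1369 in PMA1e MKT1e against Ancestral, where the counts as deposited were 1104, 1375, 2107 and 1177.

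The deviations of same-numbered arrays correlated from -0.20 to 0.39 between genotypes. The highest value was that of MKT1e with Ancestral, and MDS3e MKT1e was negative with each other genotype. These values do not settle whether the replicate numbers pair the arrays. With the replicate block the counts of members were 4 for MDS3e MKT1e, 5 for MDS3e, 1 for MKT1e and 2 for PMA1e MKT1e against Ancestral, as without it. Only 2 arrays per genotype limit what small differences can be shown.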
